A study of Homo sapiens with 3 samples.

Results

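The 4 Sprouty genes (SPRY1, SPRY2, SPRY3 and SPRY4) and the 3 SPRED genes (SPRED1, SPRED2 and SPRED3) encode feedback inhibitors of the RAS-RAF-MEK-ERK pathway. They were taken as a list of names and matched through Ensembl IDs, and all 7 were among the 23379 genes with a value in the files. Values were FPKM, fragments scaled to gene length and to the counted total of the library, from messenger RNA of the DU145 line, which was established from a brain metastasis of a human prostate carcinoma. There were 3 libraries, 1 per group: DU145 cells transfected with a plasmid for BRAF with the L597R exchange (L597R), DU145 cells overexpressing wild-type BRAF (WT), and a negative control (P-Enter). The sources used here do not give the promoter of the plasmids, how long BRAF was expressed, or whether each group was a clone or a pool.

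Signals from growth factor receptors load RAS with GTP, and RAS then recruits RAF kinases such as BRAF, which start the cascade to ERK. Sprouty proteins, first found in Drosophila as antagonists of FGF signalling, bind adaptors and RAF and dampen the signal between receptor and ERK. SPRED proteins share the cysteine-rich Sprouty domain and carry an EVH1 domain, through which SPRED1 brings the RAS GTPase-activating protein neurofibromin (NF1) to the membrane. Transcription of SPRY2 and SPRY4 is known to follow ERK activity, so that their transcripts are used as readouts of the pathway. Loss of SPRED1 function causes Legius syndrome, and lower SPRY1 and SPRY2 levels have been described in prostate cancer.

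Each group is a single library, so differences could not be set against a spread between replicates and no p-values are given. Whole reads behind each FPKM were worked out from the values, with totals of 16603676 reads in L597R, 15665132 in WT and 13294004 in P-Enter. Intervals are exact 95% intervals, Poisson for a level and Clopper-Pearson for the ratio of reads; the error they cover is that of counting alone. BRAF, the targeted gene, was at 9.59 FPKM in L597R, 4.41 in WT and 1.65 in P-Enter, and thus higher in both BRAF groups than in the control. Of the markers of the line KRT18, KRT7, CDH2 and VIM were past 1 FPKM. KRT8 was at 0.534 to 0.623 FPKM, CDH1 had 1 read in P-Enter and 0 elsewhere, and EPCAM was not analysed here. The listed fibroblast, immune and endothelial markers summed to at most 0.24 FPKM per list in any library.

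Promoter sequences are shown for the 4 members whose read ratio differed from 1 beyond counting error in at least 1 comparison: SPRY1, SPRY2, SPRY4 and SPRED1. Each window runs from 250 bases before to 50 bases after a RefSeq transcript start on GRCh38.p14 and is written 5′ to 3′ on the strand of the gene. Capitals mark matches, on either strand, to the ETS core CCGGAA and to the cyclic AMP response element half-site TGACG, and the AP-1 motif TGANTCA had no match in them.
SPRY1 first window (chr4:123396545-123396844, plus strand): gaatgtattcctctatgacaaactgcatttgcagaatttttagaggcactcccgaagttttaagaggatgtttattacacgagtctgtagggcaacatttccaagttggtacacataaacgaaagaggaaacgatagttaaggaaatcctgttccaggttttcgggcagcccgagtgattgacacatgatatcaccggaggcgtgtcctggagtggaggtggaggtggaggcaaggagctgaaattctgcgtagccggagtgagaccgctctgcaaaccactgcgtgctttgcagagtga
SPRY1 second window (chr4:123398136-123398435, plus strand): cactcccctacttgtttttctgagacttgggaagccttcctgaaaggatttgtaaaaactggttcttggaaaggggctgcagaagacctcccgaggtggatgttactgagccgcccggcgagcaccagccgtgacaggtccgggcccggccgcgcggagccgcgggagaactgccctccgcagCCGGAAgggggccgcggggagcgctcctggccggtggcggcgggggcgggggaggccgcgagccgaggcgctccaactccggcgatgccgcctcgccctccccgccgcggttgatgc
SPRY2 first window (chr13:80341077-80341376, minus strand): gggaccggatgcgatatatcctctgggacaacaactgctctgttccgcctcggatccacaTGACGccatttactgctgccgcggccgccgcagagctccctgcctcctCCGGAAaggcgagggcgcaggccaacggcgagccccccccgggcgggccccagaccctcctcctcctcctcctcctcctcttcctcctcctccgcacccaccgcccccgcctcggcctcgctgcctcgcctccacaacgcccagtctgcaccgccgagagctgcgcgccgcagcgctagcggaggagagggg
SPRY4 (chr5:142324198-142324497, minus strand): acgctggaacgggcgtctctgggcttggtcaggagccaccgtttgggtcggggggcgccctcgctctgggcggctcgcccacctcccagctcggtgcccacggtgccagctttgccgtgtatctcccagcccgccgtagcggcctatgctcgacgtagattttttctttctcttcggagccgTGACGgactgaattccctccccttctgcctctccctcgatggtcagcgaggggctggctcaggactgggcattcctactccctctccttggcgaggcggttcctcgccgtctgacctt
SPRED1 (chr15:38252586-38252885, plus strand): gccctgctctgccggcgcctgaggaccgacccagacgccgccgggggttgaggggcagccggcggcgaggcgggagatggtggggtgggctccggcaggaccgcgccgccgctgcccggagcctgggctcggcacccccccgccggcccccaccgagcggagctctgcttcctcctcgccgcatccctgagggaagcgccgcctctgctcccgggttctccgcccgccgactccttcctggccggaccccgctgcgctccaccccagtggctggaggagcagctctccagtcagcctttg

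Among all 13 windows of the 7 genes, the copies of SPRY3 on chromosome Y left out, 2 held the ETS core, 2 the AP-1 motif and 4 the half-site. Over all 35116 RefSeq windows of the same length the shares were 17.2% for the ETS core, 7.71% for AP-1 and 24.6% for the half-site. The ETS matches lay in the second SPRY1 window and the first SPRY2 window. The AP-1 matches lay in 1 window each of SPRED2 and SPRED3, which are not printed. A match is only a run of letters, and binding was not measured.

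The genes lie on 7 different chromosomes. On GRCh38, in GENCODE 29, SPRY1 (ENSG00000164056) spans positions 123396795 to 123403760 of chromosome 4 and SPRY2 (ENSG00000136158) 80335976 to 80340951 of chromosome 13. SPRY4 (ENSG00000187678) spans 142310427 to 142326455 of chromosome 5, and SPRY3 (ENSG00000168939) 155767812 to 155782459 of chromosome X. SPRED1 (ENSG00000166068) spans 38252326 to 38357249 of chromosome 15, SPRED2 (ENSG00000198369) 65310851 to 65432637 of chromosome 2, and SPRED3 (ENSG00000188766) 38388421 to 38399587 of chromosome 19. The coding sequence of SPRY1, SPRY2 and SPRY3 lies in 1 exon block, that of SPRY4 in 2, and those of the SPRED genes in 7 to 10.

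Reads of the members could be told apart from each other. No run of 50 bases in the annotated transcripts of SPRY1, SPRY2, SPRY4 or SPRED2 occurred in a transcript of another gene on either strand, against 1.56% of such runs for SPRED1 and 0.442% for SPRED3. SPRY3 sits in a pseudoautosomal region, and all 8970 of its runs occurred in its identical copy on chromosome Y, so its value is uncertain. The gene span of SPRY4 overlaps that of the antisense transcript SPRY4-AS1, with which its transcripts share no run of 50 bases on either strand. SPRY4-AS1 had 8 reads in L597R, 11 in WT and 12 in P-Enter. The kit keeps strand, but the strand setting of the counting was not given in the sources used here.

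SPRY4, SPRY2 and SPRED2 were the abundant members and SPRY3 was close to silent. FPKM is scaled to gene length, so levels can be set side by side between genes. The counting intervals do not cover error in that length. In L597R the order of FPKM levels was SPRY4 (20.8), SPRY2 (16.4), SPRED2 (13.9), SPRED1 (6.03), SPRY1 (1.47), SPRED3 (1.22) and SPRY3 (0.171), and the same order held in WT and in P-Enter. Neighbours in this order were apart beyond their counting intervals with 2 exceptions: SPRY4 and SPRY2 overlapped in WT, and SPRY1 and SPRED3 overlapped in L597R. The 3 abundant members made up 85.2% of the summed FPKM of the 7 genes in L597R, 84.8% in WT and 86.0% in P-Enter.

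**Figure D1:**
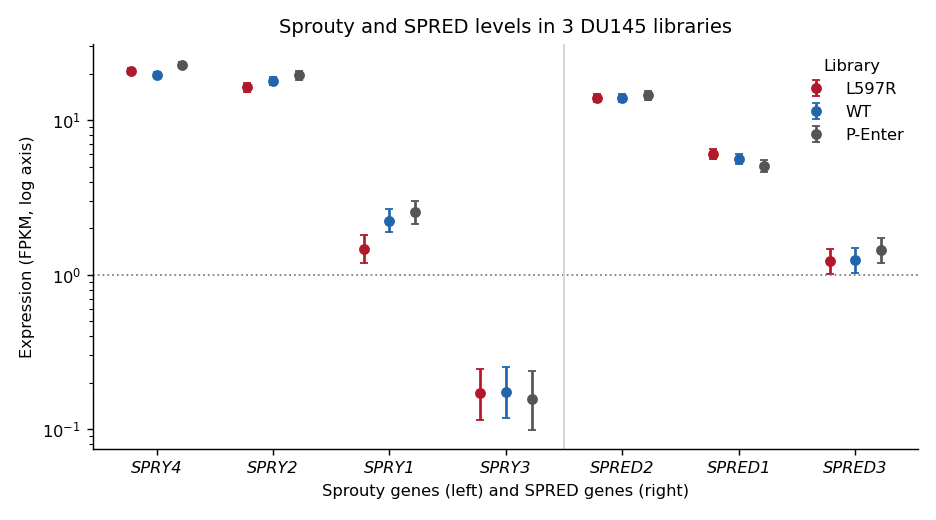
FPKM of the 4 Sprouty and 3 SPRED genes on a log axis in the L597R, WT and P-Enter libraries (1 library each), with exact Poisson 95% intervals of the counted reads and a dotted line at 1 FPKM. SPRY4, SPRY2 and SPRED2 lie above 13 FPKM in every library, SPRY3 lies below 0.2 FPKM, and SPRY1 in L597R (1.47 FPKM) lies apart from P-Enter (2.54).

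A change is given as a read ratio, the first named library over the second, and as a difference of log2(FPKM + 1), which understates the change of low genes. A gene passed the size rule when that log2 difference was at least 1 in either direction and its mean over the 3 libraries was at least 1 FPKM. The mean reached 1 FPKM for 6 members, all but SPRY3, and for 10639 genes of the files. None of the 6 passed the size rule in any comparison, against 0.808% of the 10639 genes for L597R against P-Enter, 0.978% for WT against P-Enter and 0.724% when L597R was set against WT. Differences within the family were therefore described by their intervals.

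Set against P-Enter, the L597R library shows how these feedback genes stood in cells with mutant BRAF. SPRY1, SPRY2 and SPRY4 were lower in L597R, SPRED1 was higher, and SPRED2 and SPRED3 could not be told from 1 at this depth. The interval of the read ratio lay below 1 for 3 of the 6 members and above 1 for 1 of them. Over all 10639 genes it lay below 1 for 23.9% and above 1 for 25.5%, so an interval that leaves out 1 is common between these libraries. The median log2 difference of the 6 members was -0.13, beside -0.0082 for all 10639 genes.

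SPRY1, which restrains RET signalling in the developing kidney and is an inhibitor of FGF and ERK signalling, had the lowest ratio of the family for L597R against P-Enter. It was at 1.47 FPKM in L597R, 2.24 in WT and 2.54 in P-Enter, from 97, 139 and 134 reads. L597R was the low library, and the level intervals of L597R (1.195 to 1.80) and P-Enter (2.13 to 3.01) did not overlap. The read ratio of L597R against P-Enter was 0.580 (0.442 to 0.758), and the log2 difference was -0.52. Of the 10639 genes 1.87% had a lower ratio.

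SPRY2, which holds the ubiquitin ligase CBL away from EGFR and also acts on RAF, was at 16.4 FPKM in L597R, 17.9 in WT and 19.5 in P-Enter, from 875, 903 and 833 reads. P-Enter was the highest library and L597R the lowest. The read ratio of L597R against P-Enter was 0.841 (0.764 to 0.926), with 13.5% of the 10639 genes lower. SPRY4, an inhibitor of growth factor signalling whose transcript is used to read ERK activity, was at 20.8 FPKM in L597R, 19.7 in WT and 22.7 in P-Enter. Here WT was the lowest library. The read ratio of L597R against P-Enter was 0.917 (0.863 to 0.975).

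SPRED1, the partner of neurofibromin, was at 6.03 FPKM in L597R, 5.59 in WT and 5.06 in P-Enter, from 776, 679 and 521 reads. It was highest in L597R, with a read ratio of 1.19 (1.07 to 1.34) against P-Enter. SPRED2, the most abundant SPRED gene here and an inhibitor of the same step, was at 13.9 FPKM in L597R, 13.9 in WT and 14.5 in P-Enter. The 3 level intervals of SPRED2 overlapped, and its ratio of L597R against P-Enter was 0.965 (0.889 to 1.05). SPRED3, whose KIT-binding domain is described as not functional, was at 1.22, 1.24 and 1.44 FPKM in L597R, WT and P-Enter, from 119, 114 and 112 reads. Its ratio of L597R against P-Enter was 0.851 (0.652 to 1.11). SPRY3 had 30 reads in L597R, 29 in WT and 22 in P-Enter, and its interval for L597R against P-Enter, 0.609 to 1.99, allows neither direction to be read.

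**Figure D2:**
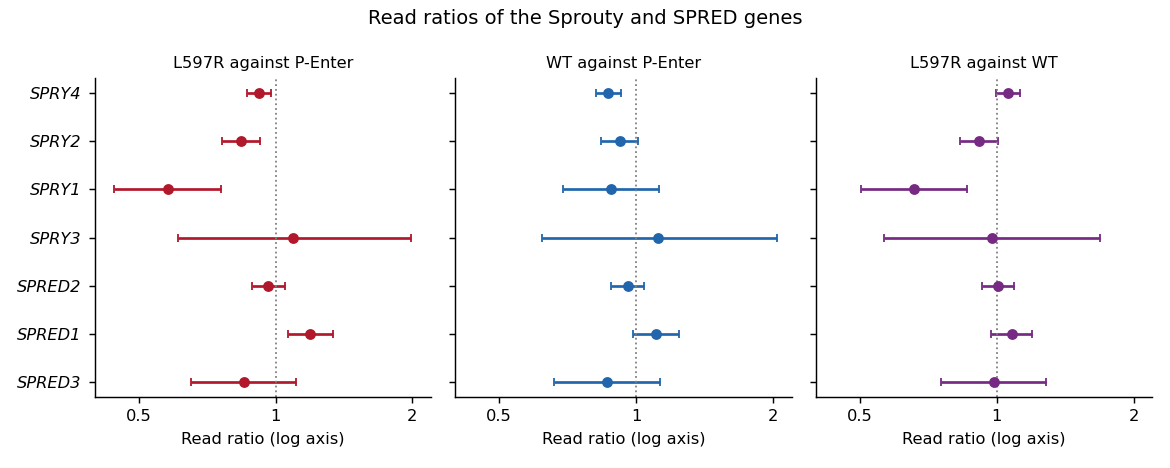
Read ratios (log axis) of the 7 genes in the 3 comparisons, with exact Clopper-Pearson 95% intervals that cover counting error only and a dotted line at a ratio of 1. The SPRY1 interval lies below 1 for L597R against P-Enter (0.442 to 0.758) and against WT (0.503 to 0.859), and the SPRED2 intervals include 1 in all 3 panels.

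The summed FPKM of the 4 Sprouty genes was 38.8 in L597R, 40.02 in WT and 44.9 in P-Enter, so L597R stood at 86.6% and WT at 89.2% of the control. The summed FPKM of the 3 SPRED genes was 21.2 in L597R, 20.7 in WT and 21.0 in P-Enter, at 101% and 98.8% of the control. These sums follow the abundant genes: SPRY4 and SPRY2 hold most of the Sprouty sum, and SPRED2 most of the SPRED sum. SPRED1 was 4.09 times the FPKM of SPRY1 in L597R, 2.50 times in WT and 1.99 times in P-Enter.

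The differences between these libraries followed the GC content of the genes. Across 9358 protein-coding genes past the filter, the log2 difference and GC content of the longest transcript had a Spearman correlation of -0.69 for L597R against P-Enter, -0.45 for WT against P-Enter and -0.59 between L597R and WT; genes are not independent replicates. A regression on GC content, length and mean FPKM gave each gene a value expected from those 3 properties. For SPRED1, at 38.9% GC, the expected log2 difference of L597R against P-Enter was 0.23 and the measured one 0.22, which left -0.02. For SPRY1, at 44.8% GC, the expected value was 0.04 and the measured one -0.52, which left -0.56. SPRY2, at 48.3% GC, had -0.22 left of -0.24, and SPRY4, at 50.4% GC, had -0.06 left of -0.12. The median of the 6 members was -0.04 after the regression for L597R against P-Enter, beside -0.13 before it, and -0.07 for WT against P-Enter, beside -0.12. What gives rise to the GC trend was not tested.

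**Figure D3:**
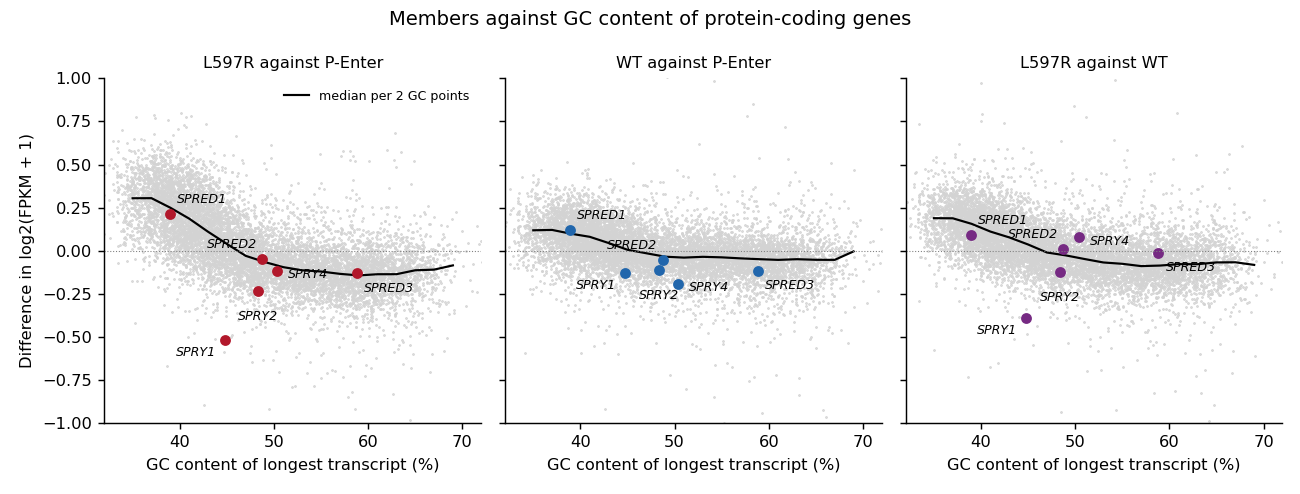
Difference in log2(FPKM + 1) against GC content (%) for 9358 protein-coding genes (grey points, axis limited to differences from -1 to 1), with the median per bin (line) and the 6 members past the filter (coloured), for the 3 comparisons. In the left panel SPRED1 lies near the line at 38.9% GC, while SPRY1 lies well below it at -0.52.

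Set against P-Enter, the WT library shows the same for wild-type BRAF. SPRY4 was lower in WT, and it was the member whose interval left out 1. Its read ratio was 0.868 (0.815 to 0.924), from 2019 reads in WT and 1974 in P-Enter, and its log2 difference was -0.20, of which -0.18 was left after the regression. The interval lay below 1 for 1 of the 6 members and above 1 for 0, beside 12.1% and 14.0% of the 10639 genes, shares that are near those of the members. SPRY2 had a ratio of 0.920 (0.836 to 1.01), SPRY1 of 0.880 (0.689 to 1.12) and SPRED1 of 1.11 (0.985 to 1.24). SPRED2 had 0.959 (0.882 to 1.04) and SPRED3 0.864 (0.660 to 1.13). The median log2 difference of the 6 members was -0.12, beside -0.0007 for all genes past the filter. Both comparisons use the same P-Enter library, so a high or low value in that library enters both.

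The comparison of L597R with WT does not use P-Enter. SPRY1 was lower in L597R than in WT, with a read ratio of 0.658 (0.503 to 0.859) and a log2 difference of -0.39, and -0.43 was left after the regression. Of the 10639 genes 2.09% had a lower ratio. It was the single member whose interval left out 1, so that 1 of 6 lay below and 0 above, beside 16.3% and 22.1% of all genes. SPRY2 had a ratio of 0.914 (0.832 to 1.004) and SPRY4, in the other direction, of 1.06 (0.995 to 1.12). The ratios of SPRED1, SPRED2 and SPRED3 were 1.08, 1.01 and 0.985, each with 1 inside its interval. The median log2 difference was -0.0022 for the 6 members and 0.0082 for all genes. BRAF itself was higher in L597R than in WT, with a read ratio of 2.18 (2.05 to 2.31), so the exchange and the amount of BRAF transcript cannot be told apart.

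The genes around the family were taken from lists of their binding partners, their pathway and other feedback inhibitors. Counts below are over the listed genes with a mean of at least 1 FPKM. For L597R against P-Enter they stand beside the 25.5% of all genes past the filter with an interval above 1 and the 23.9% with one below 1. Of the 13 Sprouty partners and modifiers past the filter, 0 passed the size rule in any comparison. The interval for L597R against P-Enter lay above 1 for 5 and below 1 for 3, with a median log2 difference of 0.03, and of 0.02 after the regression. CBLB, a relative of CBL below the filter, had 130 reads in L597R, 109 in WT and 73 in P-Enter, with a ratio of 1.43 (1.06 to 1.93) for L597R against P-Enter. NEDD4, a ubiquitin ligase that marks SPRY2 for degradation, was at 23.5 FPKM in L597R, 19.2 in WT and 16.6 in P-Enter. PTPN11, the phosphatase SHP2 that acts on tyrosines of Sprouty proteins, was at 52.1, 46.0 and 40.8 FPKM in the same libraries. SHOC2, a scaffold that helps to activate RAF, had a ratio of 1.43 (1.28 to 1.60) for L597R against P-Enter. These 3 genes have 37.2% to 42.2% GC, and 0.19 to 0.22 of their log2 differences was left after the regression. SIAH2, another ligase of Sprouty proteins, was at 8.39 FPKM in L597R, 10.1 in WT and 10.7 in P-Enter.

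Of the 8 genes past the filter on the list of SPRED partners and RAS off-switches, the interval for L597R against P-Enter lay above 1 for 4 and below 1 for 1. The 1 below was PEBP1, which is on the list but does not itself switch RAS off, with a ratio of 0.945 (0.905 to 0.986). NF1, the GTPase-activating protein that SPRED1 recruits, was at 6.45 FPKM in L597R, 6.04 in WT and 5.38 in P-Enter, and the interval of its ratio of L597R against P-Enter was 1.13 to 1.27. As for SPRED1, little of the NF1 difference, 0.02, was left after the regression. RASA1, the RAS GTPase-activating protein p120, was at 17.7 FPKM in L597R, 15.6 in WT and 11.7 in P-Enter. Its ratio was 1.52 (1.40 to 1.66) for L597R and 1.34 (1.23 to 1.46) for WT, each against P-Enter, and 0.47 and 0.36 of the log2 differences were left. RASA2 had a ratio of 1.34 (1.13 to 1.59) for L597R against P-Enter, with 0.04 left.

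Other feedback inhibitors had members in both directions. Of 10 past the filter, the interval for L597R against P-Enter lay above 1 for 3 and below 1 for 1, and for WT against P-Enter it lay above 1 for 0 and below 1 for 0, beside 14.0% and 12.1% of all genes past the filter. IL17RD, an inhibitor of FGF signalling just below the filter, had 156 reads in L597R, 118 in WT and 132 in P-Enter, and its interval for WT against P-Enter was 0.587 to 0.980. DUSP5, a nuclear ERK phosphatase, was at 78.6 FPKM in L597R, 88.9 in WT and 89.6 in P-Enter, and -0.04 of its log2 difference of -0.19 for L597R against P-Enter was left after the regression. RGS2, which limits G protein signalling, was at 5.08, 3.36 and 3.31 FPKM, with a ratio of 1.53 (1.18 to 1.99) for L597R against P-Enter and 0.35 left. IER3, an immediate-early gene, was at 4.42, 3.97 and 5.07 FPKM, with -0.03 left. The MAPK output list itself holds SPRY2 and SPRY4, so it partly repeats values of the members. With them, the interval lay below 1 for 5 of 8 genes past the filter and above 1 for 0 in L597R against P-Enter. SPRY2 and SPRY4 are among these 5. DUSP4, an ERK phosphatase of the list below the filter, went the other way, with 47 reads in L597R, 46 in WT and 21 in P-Enter and a ratio of L597R against P-Enter of 1.79 (1.05 to 3.16). ETV5, an ETS factor downstream of ERK, had a ratio of 0.854 (0.777 to 0.940), and -0.19 was left after the regression. The median log2 differences of L597R against P-Enter were 0.16 for the SPRED partners and RAS off-switches, -0.05 for the other feedback inhibitors and -0.12 for the MAPK output list, beside -0.0082 for all genes past the filter. After the regression these list medians were 0.04, 0.05 and -0.05, so that of the other feedback inhibitors changed sign.

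**Figure D4:**
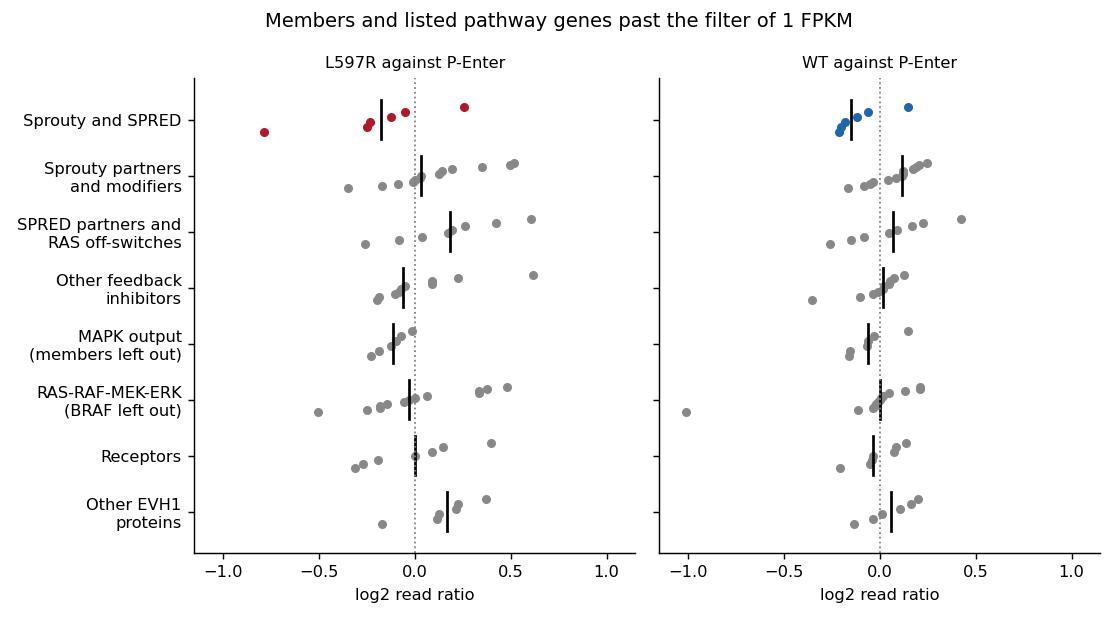
log2 read ratios of the 6 members past the filter (coloured) and of the listed pathway genes past 1 FPKM (grey), for L597R against P-Enter and WT against P-Enter, with the median of each list as a black bar. In points and medians, SPRY2 and SPRY4 are left out of the MAPK output list and BRAF out of the RAS-RAF-MEK-ERK chain. The member medians are -0.18 and -0.15, and SPRY1 at -0.79 is the lowest point of the left panel.

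Upstream and alongside, the lists also held genes on both sides. Of 14 genes of the RAS-RAF-MEK-ERK chain past the filter, 1 passed the size rule, BRAF, in each comparison with P-Enter. HRAS, a RAS isoform, was at 11.3 FPKM in L597R, 7.94 in WT and 16.0 in P-Enter, with ratios of 0.705 (0.620 to 0.801) and 0.496 (0.429 to 0.573) against P-Enter, and -0.37 and -0.88 were left after the regression. SOS2, an exchange factor that loads RAS, had a ratio of 1.39 (1.21 to 1.61) for L597R against P-Enter, with 0.20 left. Of 7 receptors past the filter 0 passed the size rule. MET, the HGF receptor, was at 24.4 FPKM in L597R, 19.6 in WT and 18.5 in P-Enter, ERBB2 at 6.79, 7.30 and 8.44, and IGF1R at 2.80, 3.25 and 3.37. For L597R against P-Enter the interval lay above 1 for 5 and below 1 for 5 of the chain, and above 1 for 2 and below 1 for 3 of the receptors. Among 6 proteins past the filter that carry an EVH1 domain as the SPRED proteins do, ENAH was at 7.47 FPKM in L597R against 5.78 in P-Enter, VASP at 49.6 against 55.9 and WASL at 13.4 against 11.5. For L597R against P-Enter the regression left 0.25 for MET, -0.15 for ERBB2, -0.13 for IGF1R, 0.12 for ENAH, -0.0097 for VASP and 0.02 for WASL.

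Likeness of pattern was measured as the distance between log2(FPKM + 1) values of the 3 libraries after centring each gene, among protein-coding genes within 2-fold of the mean level of a member. With 3 libraries many genes come close. The nearest to SPRY1 were CASTOR2 (distance 0.013), at 0.741, 1.26 and 1.503 FPKM in L597R, WT and P-Enter, and PPOX (0.061), at 1.47, 2.05 and 2.37 FPKM. The nearest to SPRY2 were ANAPC2 and CCDC12, SMAP2 was among the nearest to SPRY4, and those to SPRED1 were ATP11B and TMEM64. For SPRED2 they were NOM1 and GIT1, and for SPRED3 LAMB1 and ACAD10. Distances of the genes named for these 5 members were 0.0017 to 0.0059. The closest gene to SPRY1 was thus farther than any named for the other members, out of 2669 candidates.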

How the data were processed

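The authors deposited FPKM per Ensembl gene and library, per the file headers. Per the labels' protocols, RNA came from Trizol extraction and the libraries from a kit for stranded mRNA. The submitters' processing notes name HTSeq, HISAT2, Cufflinks and Trimmomatic, and the build GRCh38 (hg38). Tool versions, annotation release and strand setting of the counting are not given in the sources used here.

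From FPKM, differences of log2(FPKM + 1) were computed, and a search over totals and lengths gave whole reads in all 3 libraries (tolerance 1e-05 reads, wider in proportion for high counts); all 23379 genes gave a solution. The recovered reads summed to 100.8% of the totals, for which no reason was established. Reads that are amplification copies do not count separate molecules. The steps were tested on simulated data. No count model was fitted.

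A table of gene names gave symbols (23330 IDs matched), positions, lengths and GC content from GENCODE 29 (22807 matched), and promoters from RefSeq (all 7 members matched). The members and lists were chosen with earlier results of these data known. Named were all members, BRAF, the 3 genes of each list with the largest log2 difference past the filter of 1 FPKM, and the 2 genes nearest to each member. Some genes that this rule picks are not reported here. SIAH2 and PEBP1 were added after their values were seen. Also outside this rule were CBLB, DUSP4 and IL17RD, which lie below the filter and have an interval leaving out 1 in at least 1 comparison. The other listed pathway genes below the filter are not reported. SPRY4-AS1 and the line markers VIM, KRT8, CDH1 and EPCAM were outside the rule as well. Alternatives were other pseudocounts, filters, thresholds and scalings, the regression with cubic terms, and recovered reads. Software was Python 3.11.15 with scipy 1.17.1, pandas 2.3.3, matplotlib 3.10.9 and numpy 2.4.6.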

Additional observations from a re-analysis of the deposited data

How the results depend on the processing

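The count of members past the size rule stayed at 0 in all 3 comparisons with pseudocounts of 0.1 and 5, without a filter, at a mean of at least 5 FPKM, at a threshold of 1.5-fold, after rescaling by the median ratio, without mitochondrially encoded genes, after the regression, and with recovered reads at a ratio of 2. The pseudocount of 5 and the filter of 5 FPKM could not have raised this count. At a threshold of 1.2-fold it was 1, SPRY1, for L597R against P-Enter and also 1, SPRY1, between L597R and WT. The share of all genes past that threshold is not given here, so these counts have no background beside them. Counting every interval that left out 1, an alternative chosen after seeing the data, gave 4 members for L597R against P-Enter, 1 for WT against P-Enter and 1 between L597R and WT. For all genes past the filter, the interval lay above 1 for 25.5%, 14.0% and 22.1% in the same order. It lay below 1 for 23.9%, 12.1% and 16.3%. The median of the members after the regression was -0.04 for L597R and -0.07 for WT, each against P-Enter, in place of -0.13 and -0.12. Another pseudocount, another filter or the use of recovered reads cannot change the sign of a log2 difference, unlike the scalings and the regression. Of 141 values of single members under all these alternatives, 136 kept the sign of the log2 difference. The 5 others were SPRED1 and SPRED3 after the regression, in both comparisons of L597R, and SPRED2 for L597R against WT without mitochondrially encoded genes (-0.0027). SPRED1 became -0.02 against P-Enter and -0.05 against WT, and SPRED3 became 0.06 and 0.09. The SPRY1 difference of L597R against P-Enter was -0.22 with a pseudocount of 5 and -0.79 with recovered reads. Of the 141 values, 4 moved out of the counting interval of the member. They were these values of SPRY1 and those of SPRED1 after the regression in both comparisons of L597R. No paired analysis was possible because each group had 1 library, and for the same reason no library could be left out. Depth limits SPRY3, with 22 to 30 reads, and SPRED3, with 112 to 119.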
